A study of Mus musculus with 6 samples.

Results

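Early endocrine differentiation genes were followed in Pdx1-Cre labelled cells of mouse embryos with and without *mir-302*, a cluster of microRNAs expressed in early progenitors. They were 9 genes chosen by symbol, Neurog3, Neurod1, Fev, Pax4, Pax6, Insm1, Isl1, Nkx2-2 and Gcg, and all 9 were found among the 55414 genes of the count table and passed the filter on low counts. The cells carried Pdx1-Cre and tdTomato in both groups and were either miR-302 wild type (WT, 3 libraries) or miR-302KO (KO, 3 libraries). They came from crosses of miR-302+/- parents and were sorted from the trunk of embryos at E10.5, embryonic day 10.5. The Cre is a transgene that switches on the red label in cells that express it and in their descendants, so the sorted cells are a lineage and not one cell type. The labels call them pancreatic progenitors and do not say how many embryos went into a library. The knockout came from the parents and was not made by the Cre. The question was how these genes differed between KO and WT cells.

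Endocrine cells of the pancreas arise from epithelial progenitors in which Neurog3, a basic helix-loop-helix factor, is switched on for a short time. Neurog3 activates further transcription factors, among them Neurod1, Insm1, Pax4 and Nkx2-2, and the cells then leave the cell cycle and take up hormone production. Glucagon cells are among the first endocrine cells to appear in the mouse pancreas, before the main wave of beta cell formation. MicroRNAs lower the level of mRNAs whose 3′UTR pairs with their seed, the bases near their 5′ end.

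Total counts per library ran from 17352498 to 26634523, and 1 count was worth 0.0373 to 0.057 CPM (counts per 1000000 counts of a library after scaling). The 9 genes together made up 0.109% to 0.555% of the counts of a library, most of them from Gcg. The summed level of 11 pancreatic progenitor markers was similar in all libraries, at 875 to 994 CPM in WT and 923 to 1161 CPM in KO. Single markers varied more. All KO libraries lay above all WT libraries for 1 of the 11, Gata4 (173 to 249 CPM in WT, 322 to 342 CPM in KO). They lay below for 0, against 8.36% and 7.99% of all genes. Other cells left more uneven traces. Mesenchyme markers (12 genes) summed to 192 to 1092 CPM in WT and 50.8 to 1147 CPM in KO, and blood markers (8 genes) to 2.29 to 15940 CPM in WT and 0.798 to 6379 CPM in KO. Liver markers (7 genes) summed to 899 to 2148 CPM in WT and 599 to 2568 CPM in KO. All 3 sums were lowest in KO replicate 2, where the mesenchymal collagens Col1a1 and Col3a1 were at 0. Poly(A) libraries are not made to capture short RNAs, and no library of either genotype had a count for Mir302a, Mir302b, Mir302c or Mir367. Mir302d had 2 counts in KO replicate 3 alone. These counts therefore do not check the genotype labels. Larp7, the gene whose intron holds the cluster, differed little (log2 fold change -0.03 ± 0.14 SE).

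Among the 9 genes, Fev had by far the largest difference, higher in KO, and neither Fev nor Pax4, at 1.59-fold, overlapped between the genotypes. Neurog3, Neurod1, Pax6, Isl1, Nkx2-2 and Gcg had log2 fold changes between -0.11 and 0.21, and their genotypes overlapped. Insm1 lay between, at 0.86, with overlap. By the quasi-likelihood test of edgeR, at a Benjamini-Hochberg adjusted p of 0.05, 0 of the 9 genes were called, and 0 of all 16353 genes tested (0%). In DESeq2, 1 of the 9 genes, Fev, was called higher and 0 lower, where 4.2% of all genes with an adjusted p were called higher and 0.642% lower. At an unadjusted p under 0.05 in edgeR, 2 of the 9 genes were higher and 0 lower, against 6.42% and 3.97% of all genes. All KO libraries lay above all WT libraries for 2 of the 9 genes, and below for 0, against 8.36% and 7.99% of all genes. With so few genes, 1 or 2 calls stand little apart from these shares as a count. The median log2 fold change of the 9 genes was 0.02, and that of all genes tested was -0.02. Because these are bulk libraries, a lower level in a library can be fewer cells of a type or less RNA in each cell, and these cannot be told apart. Where nothing in the labels says that libraries came from separate embryos, the p-values measure only the spread between these libraries.

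**Figure D1:**
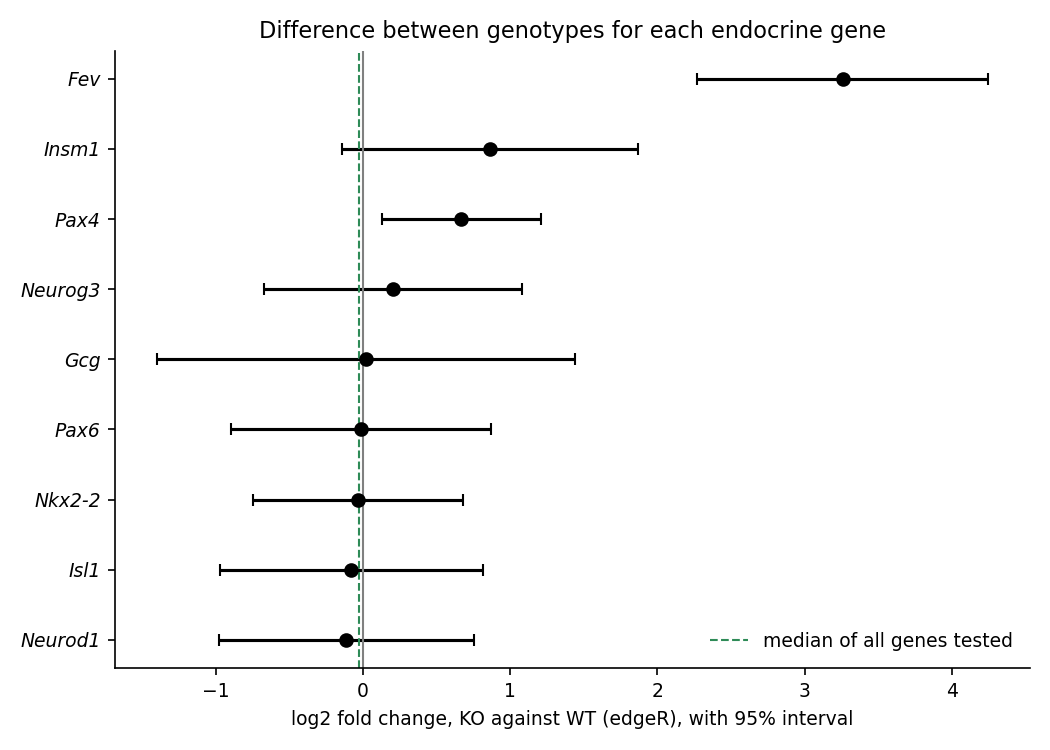
Log2 fold change of each of the 9 genes in KO against WT (x axis; points, edgeR) with its 95% interval (bars), ordered by size; the dashed line is the median of all genes tested. The interval of Fev (2.27 to 4.25) lies far right of 0 and that of Pax4 (0.13 to 1.21) just right of it, and the other 7 intervals cross 0.

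Fev (ENSMUSG00000055197.5) encodes an ETS-family transcription factor that is switched on in endocrine precursors after Neurog3 and is also the defining factor of serotonergic neurons. Its level was 0.424, 0.726 and 0.728 CPM in the 3 WT libraries and 6.04, 8.43 and 3.59 CPM in the 3 KO libraries. Fev was very low in every WT library and higher in every KO library, and the lowest KO library was 4.93 times the highest WT library. Fitted over the 6 libraries, the log2 fold change was 3.26 ± 0.42 (SE), or 9.56-fold, with a 95% interval of 2.27 to 4.25. The adjusted p was 0.132 in edgeR, where only 7 of the 16353 genes had a smaller p, and 1.57e-08 in DESeq2.

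The Fev difference rested on few counts in WT. There were 9, 13 and 15 counts in WT and 162, 148 and 66 in KO, and the exact Poisson 95% intervals of the libraries, which cover counting error only, reached at most 1.24 CPM in WT and began at 2.78 CPM or more in KO. At the level set by the filter, 0.507 CPM, 3 KO libraries passed and 2 WT libraries, so Fev was tested because of its level in KO. The difference was present in both series of library codes, read by their first digit in the labels. In one series Fev stood at 0.424 and 0.726 CPM in WT against 6.04 CPM in KO, and in the other at 0.728 CPM in WT against 8.43 and 3.59 CPM in KO.

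Because Fev also marks a class of neurons, neural markers were read beside it, none of them particular to serotonergic neurons. The 17 neural markers summed to 84.2 to 194 CPM in WT and 97.1 to 233 CPM in KO, so the genotypes overlapped. Olig2 and Lhx3, factors of spinal cord progenitors and motor neurons, were at 0 in every library. Nefm, Map2 and Tubb3, genes of the cytoskeleton, made up most of the sum, which was lowest in WT replicate 1 and highest in KO replicate 2. Only 8 of the 17 passed the filter, 7 with a positive and 1 with a negative log2 fold change (median 0.10). The negative one, Dcx, a microtubule protein of young neurons, was also the only one without overlap. It was at 8.48, 10.3 and 9.13 CPM in WT and 3.80, 5.47 and 4.03 CPM in KO. Its log2 fold change was -1.07 (adjusted p = 0.136 in edgeR and 0.0028 in DESeq2), and it is named after its values were seen. The part of neural cells in the Fev difference was not tested.

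GC content moved with genotype in these libraries. The most GC-rich stretch of 200 bases in the Fev transcript was 77% G and C. Of all genes tested whose stretch was 75% to 80%, 16.4% had all KO libraries above all WT libraries, and of those under 65%, 3.94% did. With offsets that level this trend out, the log2 fold change of Fev was 3.13, against 3.26 without. The median log2 fold change of the genes whose stretch was between 75% and 80% was 0.07. The offsets level the average trend over genes and not the recovery of a single gene. The part of GC content in the Fev difference was not tested.

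The share of G and C was 69% in the Isl1 promoter, 68.3% in Neurog3, 66.7% in Neurod1 and 59.7% in Nkx2-2. It was 58.7% and 46.3% in the promoters listed for Pax6, and 47% in Gcg. The Fev promoter was at the upper end, and the part of promoter GC in the Fev difference was not tested. From 250 bases before to 50 bases after the start of the gene (RefSeq, GRCm38.p6, chr1:74885359-74885658, minus strand), 69% of the bases were G or C, and it held neither the E-box CAGATG nor any CANNTG on either strand, the letters that basic helix-loop-helix factors such as Neurog3 and Neurod1 bind. CAGATG, which is one form of CANNTG, was found in 17.2% and CANNTG in 72.3% of 32851 RefSeq promoters of this length. The sequence is shown because Fev is the gene that differed most.
Fev promoter: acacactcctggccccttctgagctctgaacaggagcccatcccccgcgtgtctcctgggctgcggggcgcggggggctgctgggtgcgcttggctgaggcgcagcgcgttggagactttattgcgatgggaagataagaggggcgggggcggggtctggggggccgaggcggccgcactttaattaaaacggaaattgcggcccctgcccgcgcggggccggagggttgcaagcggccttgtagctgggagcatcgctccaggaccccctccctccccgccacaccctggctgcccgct

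Pax4 (ENSMUSG00000029706.16), a paired-box repressor that favours beta and delta cells over alpha cells, was the other gene without overlap. Its level was 10.1, 9.33 and 9.52 CPM in WT and 14.5, 20.2 and 11.3 CPM in KO. The WT libraries lay within a narrow band and all 3 KO libraries lay above it, although the lowest KO library was only 1.12 times the highest WT library. This gave a log2 fold change of 0.67 ± 0.23 (SE), or 1.59-fold, with an unadjusted p of 0.0216 and an adjusted p of 0.334 in edgeR and 0.109 in DESeq2. Its most GC-rich stretch was 61%, and of the genes tested under 65%, 3.94% had all KO libraries above WT. The offsets gave a log2 fold change of 0.72 for Pax4. The part of GC content in the Pax4 difference was not tested. Without KO replicate 2, the highest library for Pax4, the log2 fold change was 0.44.

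Insm1 (ENSMUSG00000068154.6), a zinc-finger factor needed for endocrine cells to leave the epithelium and mature, had the lowest mean CPM of these genes in WT for its exon length. It stood at 0.566, 1.06 and 1.21 CPM in WT and at 1.98, 2.05 and 1.14 CPM in KO. KO replicates 1 and 2 were above every WT library, and KO replicate 3 fell among them. Insm1 had a log2 fold change of 0.86 ± 0.43 (SE), with an adjusted p of 0.56 in edgeR, and it rested on 12 to 53 counts per library. Its most GC-rich stretch reached 87%, and of the genes tested at 80% or more 37.7% had all KO libraries above WT, with a median log2 fold change of 0.41. With the GC offsets, the log2 fold change of Insm1 was 0.39. The part of GC content in the Insm1 difference was not tested.

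**Figure D2:**
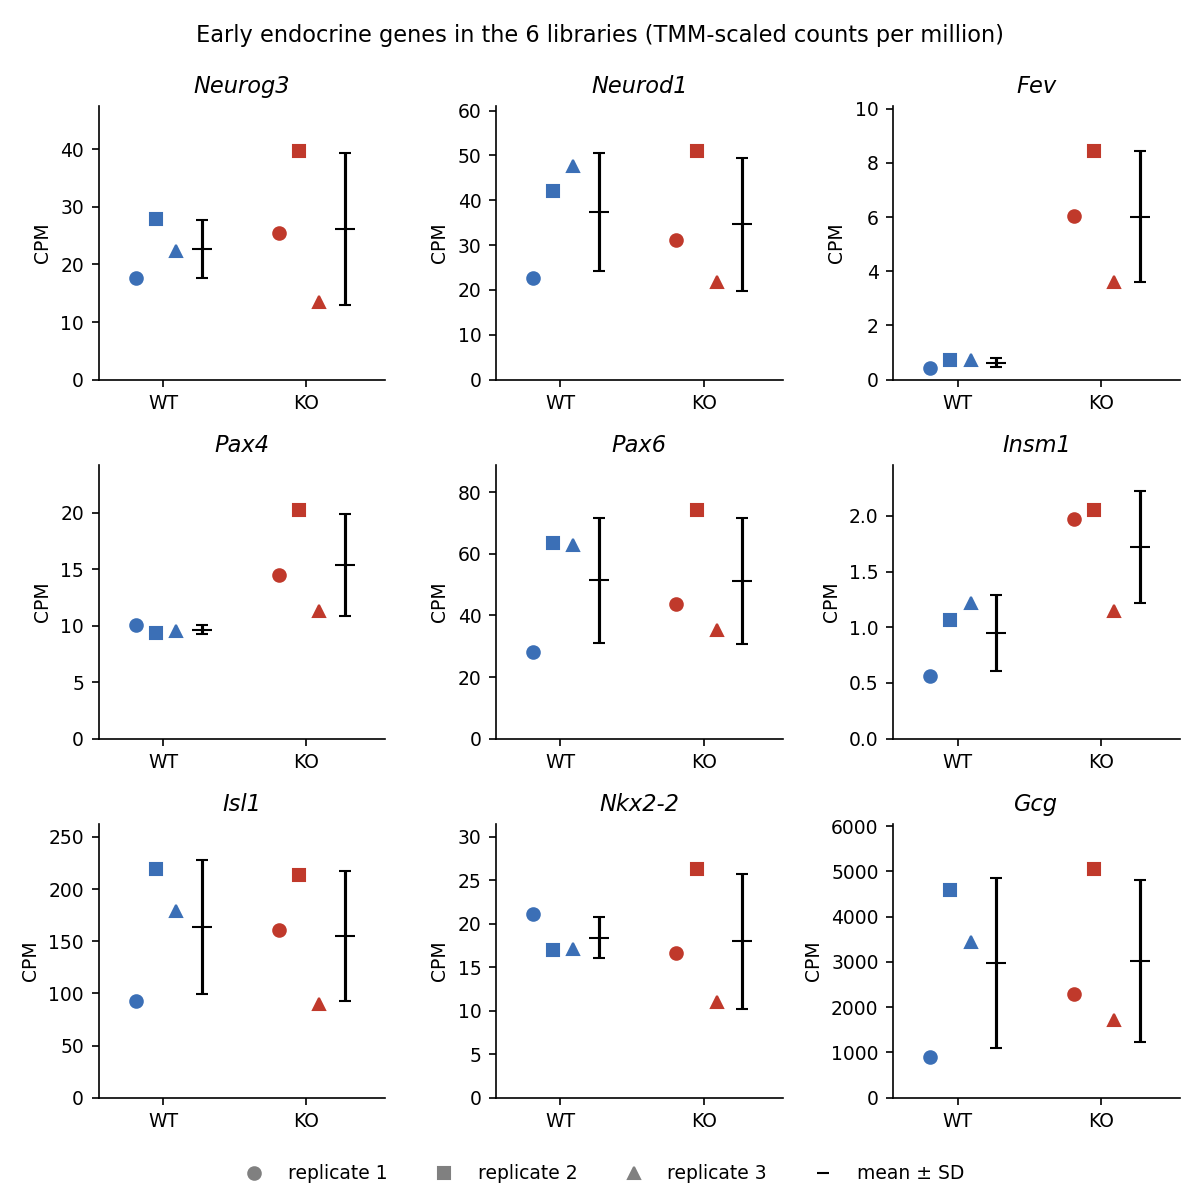
Level of each of the 9 genes in CPM (y axes, from 0, a scale for each gene) in the 3 WT (blue) and 3 KO (red) libraries, with a symbol for each replicate number and the mean ± SD (black). Fev and Pax4 show all 3 KO libraries above WT; for Gcg, Isl1, Pax6 and Neurod1, WT replicate 1 and KO replicate 3 lie low and the genotypes overlap.

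Neurog3 (ENSMUSG00000044312.5), the gene that starts the endocrine programme, was expressed in every library. Its level was 17.7, 27.9 and 22.4 CPM in WT and 25.4, 39.7 and 13.4 CPM in KO. The highest and the lowest library were both KO, and WT lay between them. The log2 fold change was 0.21 ± 0.37 (SE), with a 95% interval of -0.67 to 1.08 and an adjusted p of 0.929 in edgeR. With 3 libraries of each genotype, the interval therefore holds a decrease, no difference and an increase. Exons of Neurog3 overlap those of Fam241b on the opposite strand over 273 bases, 16.3% of its exonic length, and Fam241b was at 21.4 to 28.7 CPM with no difference between genotypes (log2 fold change -0.10 ± 0.17 SE). The sources used here do not state whether reads were counted by strand.

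Neurod1 (ENSMUSG00000034701.10), a direct target of Neurog3 that keeps the endocrine programme running, was at 22.7, 42.0 and 47.6 CPM in WT and at 31.2, 50.9 and 21.8 CPM in KO. WT replicate 1 and KO replicate 3 were low and at nearly the same level. Its log2 fold change was -0.11 ± 0.37 (SE; adjusted p = 0.961 in edgeR). A stretch of 201 bases of Neurod1 (7.37% of its exonic length) is also annotated to Cerkl, which was at 1.23 to 3.65 CPM.

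Pax6 (ENSMUSG00000027168.22), a paired-box factor that activates the glucagon gene and other hormone genes, was at 28.0, 63.3 and 62.9 CPM in WT and at 43.6, 74.1 and 35.3 CPM in KO. As for Neurod1, WT replicate 1 and KO replicate 3 were the lowest. Its log2 fold change was -0.01 ± 0.38 (SE), with a 95% interval of -0.89 to 0.87 and an adjusted p of 0.996 in edgeR.

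Neurod1 and Pax6 were the only genes of the 9 whose annotated 3′UTR can pair with the seed of miR-302. Of the deleted cluster, 4 of the mature 3p arms are shown with bases 2 to 8 in capitals (RefSeq, GRCm38.p6, plus strand, chr3:127545275-127545297 for miR-302b-3p, chr3:127545406-127545427 for miR-302c-3p, chr3:127545665-127545687 for miR-302d-3p and chr3:127545779-127545800 for miR-367-3p). miR-302b-3p and miR-302d-3p share one seed, the listed miR-302c-3p starts 1 base later in the same letters, and miR-367-3p has another seed. The remaining 3p arm is miR-302a-3p, and only the seed shared by miR-302b-3p and miR-302d-3p was searched in 3′UTRs.
miR-302b-3p: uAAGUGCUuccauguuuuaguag
miR-302d-3p: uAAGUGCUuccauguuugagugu
miR-302c-3p: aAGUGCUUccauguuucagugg
miR-367-3p: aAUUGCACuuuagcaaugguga

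The matches to the seed of miR-302b-3p and miR-302d-3p in Neurod1 and Pax6 are given in capitals within 30 bases of the 3′UTR (GENCODE M21, GRCm38), at base 624 of 1443 in Neurod1 and at base 112 of 1009 in Pax6. Both pair with the whole seed.
Neurod1 3′UTR: tgcgttgccttAGCACTTctttcttctcta
Pax6 3′UTR: tggcggttagaAGCACTTcactttgtaact

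The genes with a match had log2 fold changes of -0.11 (95% interval -0.98 to 0.75) and -0.01 (-0.89 to 0.87). Fev had no match in a 3′UTR of 567 bases, and Pax4 none in one of 44 bases. A match was present in 17.7% of 21045 annotated 3′UTRs. Among the genes tested, those with a match (2834) had a median log2 fold change of -0.03 and those without (10934) one of -0.01. These sets were not matched for GC content or 3′UTR length. Over all genes tested, the median ran from -0.05 for GC-rich stretches under 65% to 0.41 at 80% or more.

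Isl1 (ENSMUSG00000042258.14), a LIM-homeodomain factor of maturing endocrine cells that is also expressed in pancreatic mesenchyme and in neurons, was the second most expressed of the 9 genes. Its level was 92.7, 219 and 179 CPM in WT and 161, 214 and 90.2 CPM in KO. The spread within each genotype exceeded 2-fold and the genotypes overlapped throughout. For Isl1 the log2 fold change was -0.08 ± 0.38 (SE; adjusted p = 0.973 in edgeR). In KO replicate 2, where Isl1 was at 214 CPM, the mesenchyme markers summed to 50.8 CPM, and their part in the Isl1 level was not tested.

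Nkx2-2 (ENSMUSG00000027434.12), a homeodomain factor found in early progenitors and later kept in alpha and beta cells, was at 21.1, 16.9 and 17.1 CPM in WT and at 16.6, 26.3 and 10.99 CPM in KO. Here WT replicate 1 was the highest WT library, which set Nkx2-2 apart from Gcg, Isl1, Pax6 and Neurod1. KO against WT gave a log2 fold change of -0.04 ± 0.30 (SE; adjusted p = 0.987 in edgeR). The antisense transcript Nkx2-2os shares 278 bases with it and stood at 0.279 to 1.23 CPM.

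Gcg (ENSMUSG00000000394.16), which encodes glucagon, was by far the most abundant of these transcripts and varied widely within each genotype. It was at 900, 4578 and 3444 CPM in WT and at 2283, 5047 and 1714 CPM in KO. The WT libraries differed among themselves by 5.09-fold and the KO libraries by 2.94-fold. With means of 2974 ± 1884 CPM (SD, n = 3) in WT and 3014 ± 1783 CPM (SD, n = 3) in KO, the log2 fold change was 0.02 ± 0.60 (SE). Its 95% interval ran from -1.40 to 1.44, the widest of the 9 genes, and the adjusted p was 0.996 in edgeR.

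The Gcg promoter differs from that of Fev in that it holds CAGATG, in capitals, at 139 and 83 bases before the start (RefSeq, GRCm38.p6, chr2:62483604-62483903, minus strand). Nkx2-2 had 1 match on either strand, and Fev, Isl1, Neurod1, Neurog3 and Pax6 had 0. Promoters of Pax4 and Insm1 were not analysed here. A match is only a run of letters, and binding was not measured.
Gcg promoter: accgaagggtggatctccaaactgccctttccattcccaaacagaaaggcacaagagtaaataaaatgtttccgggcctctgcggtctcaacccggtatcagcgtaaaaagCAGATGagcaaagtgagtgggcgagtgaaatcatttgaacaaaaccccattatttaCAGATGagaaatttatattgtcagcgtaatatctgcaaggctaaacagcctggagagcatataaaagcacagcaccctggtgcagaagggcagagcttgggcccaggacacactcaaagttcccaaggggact

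Across libraries, most of the 9 genes shared one pattern. The levels of each gene were centred on their mean over the 6 libraries on the log2 CPM scale, and their median was taken in each library. For WT replicates 1 to 3 this median came to -0.69, 0.27 and -0.02, and for KO replicates 1 to 3 to 0.10, 0.69 and -0.58. WT replicate 1 and KO replicate 3 were therefore poor in endocrine transcripts and KO replicate 2 was rich in them. KO replicate 2 was also the library with the least mesenchyme, blood and liver (50.8, 0.798 and 599 CPM of their markers). KO replicate 3 had 1076 CPM of mesenchyme markers, 336 CPM of blood markers and the most liver (2568 CPM). WT replicate 1, the other library poor in endocrine transcripts, had 522, 2.36 and 1619 CPM. The part of these other cells in the endocrine levels was not tested.

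The closest profiles were those of Neurod1 and Pax6, which differed by 0.13 (root mean square of centred log2 CPM over 6 libraries), followed by Neurod1 and Isl1 (0.18) and Pax6 and Isl1 (0.18). Gcg ranked the 6 libraries in the same order as Pax6, with larger swings, and was 0.38 from it. Neurog3 was nearest to Isl1 (0.24). Fev stood apart from every other gene, at 1.12 or more. These distances describe 6 libraries that share cells and depth between genes and carry no test.

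**Figure D3:**
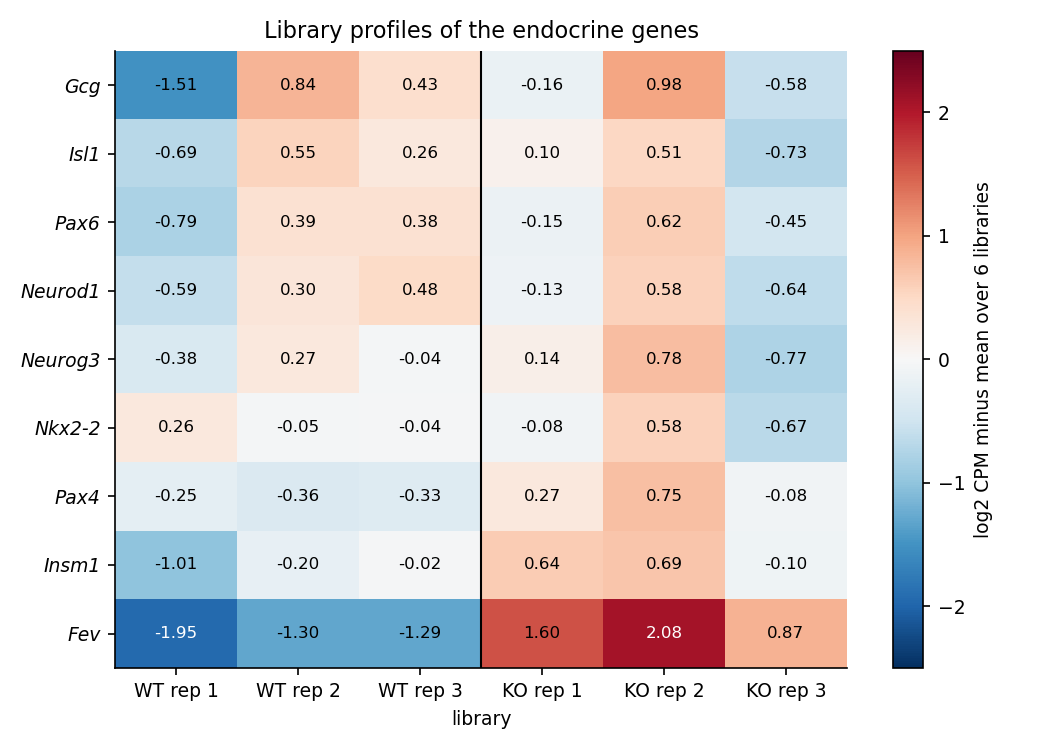
Log2 CPM of each gene (rows) minus its mean over the 6 libraries (columns; WT left, KO right of the line), in colour and as numbers. Gcg, Isl1, Pax6 and Neurod1 are below their mean in WT replicate 1 and KO replicate 3 and above it in KO replicate 2, and Fev divides by genotype, with -1.95 to -1.29 in WT and 0.87 to 2.08 in KO.

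Each gene was also set against Gcg, the main endocrine transcript, in the same library. Per 1000 Gcg counts, Fev had 0.471, 0.159 and 0.211 counts in WT and 2.64, 1.67 and 2.10 in KO. The genotypes did not overlap on this scale either, although the exact two-sided permutation test of 3 against 3 libraries cannot give a p below 0.1. Pax4 lost its separation on the same scale, with 11.2, 2.04 and 2.76 counts in WT and 6.35, 4.01 and 6.61 in KO, since WT replicate 1 combined an ordinary Pax4 level with little Gcg. Nkx2-2 behaved alike, with 23.5 counts per 1000 Gcg counts in WT replicate 1 and 3.70 to 7.28 in the other 5 libraries. Neurog3 was at 6.09 to 19.7 in WT and 7.84 to 11.1 in KO.

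**Figure D4:**
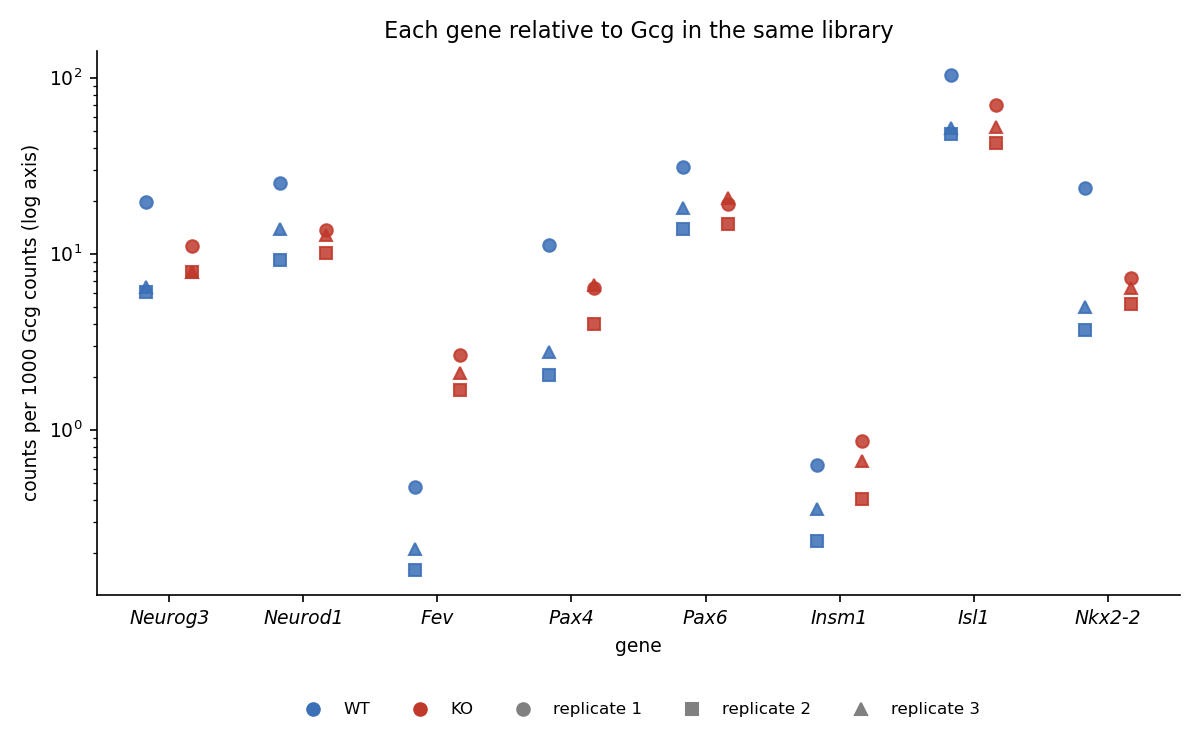
Counts of each gene per 1000 Gcg counts in the same library (y axis, log scale) in WT (blue) and KO (red), with a symbol for each replicate number. Fev is the only one of the 8 genes without overlap, at 0.159 to 0.471 in WT and 1.67 to 2.64 in KO, and WT replicate 1 is the highest WT library for every gene.

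Compared per kilobase of exon (CPM per kb), Gcg led in WT with 1990 ± 1260 (SD, n = 3), followed by Isl1 with 41.3 ± 16.3. Neurod1 (13.7 ± 4.79) and Neurog3 (13.5 ± 3.04) came next and did not differ beyond their spread. Pax4 (6.67 ± 0.273) and Nkx2-2 (6.40 ± 0.820) overlapped as well, and Pax6 (4.40 ± 1.74) lay below them in every WT library. Fev (0.387 ± 0.108) and Insm1 (0.305 ± 0.109) were last and overlapped. The place of Pax6 depends on the length used, since its annotated exons cover 11.7 kb over all isoforms, and with its longest coding transcript (4.43 kb) it came to 11.6 CPM per kb. In KO, Gcg (2020 ± 1190) and Isl1 (39.1 ± 15.7) led again and Fev (3.72 ± 1.5) came up to Pax6 (4.36 ± 1.75), with overlapping ranges. Insm1 (0.556 ± 0.163) was then alone at the bottom, 6.7-fold below Fev. The most GC-rich stretch was 55% in Gcg, 77% in Fev, 87% in Insm1 and 61% to 71.5% in the other genes. The part of GC content in this order was not tested.

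Other genes of the endocrine programme were read from lists chosen by role. Of 22 other endocrine transcription factors, 18 were tested, 11 with a positive and 7 with a negative log2 fold change (median 0.08). None of the 18 was called by edgeR and 1 was called higher by DESeq2, where 4.2% of all genes were. This was Sox4, a SOX factor needed for endocrine differentiation, at 27.2, 44.6 and 24.6 CPM in WT and 152, 147 and 74.1 CPM in KO. All KO libraries lay above WT, as for Fev, with a log2 fold change of 1.96 ± 0.33 (SE; adjusted p = 0.132 in edgeR and 1.57e-08 in DESeq2). Its most GC-rich stretch was 80.5%, so it falls among the genes in which KO libraries most often lay above WT. The part of GC content in the Sox4 difference was not tested.

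Myt1, a zinc-finger factor of endocrine precursors, had a log2 fold change of -0.02, Rfx6, a regulator of islet development, one of 0.01 and Hes6, a gene induced in Neurog3 cells, one of 0.24. Rfx3, a factor of ciliogenesis and islet maturation, had the smallest p among the lower genes, at 27.3 to 32.9 CPM in WT and 19.2 to 26.7 CPM in KO (-0.36 ± 0.16 SE; adjusted p = 0.51 in edgeR).

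Hormone genes other than Gcg ranged widely in level, and 7 of 12 had at least 1 CPM in every library. Of the 12, 9 were tested, 3 with a positive and 6 with a negative log2 fold change (median -0.10). None was called by either test or had an unadjusted p under 0.05 in edgeR. Of all genes, edgeR called 0%, and DESeq2 called 4.2% higher and 0.642% lower. At that unadjusted p, 6.42% of all genes were higher and 3.97% lower. With so few genes, a count of 0 stands little apart from these shares. Pyy, peptide YY, was the highest, at 298, 738 and 572 CPM in WT and 364, 795 and 343 CPM in KO, again low in WT replicate 1 and KO replicate 3. Sct, secretin, was at 15.2 to 32.8 CPM in WT and 16.4 to 44.5 CPM in KO. Cck, cholecystokinin, was at 12.2 to 23.3 CPM in WT and 14.5 to 21.1 CPM in KO. Sct and Cck are named after their values were seen. Ins1 ran from 0.163 to 8.32 CPM and Ins2 from 0.0471 to 1.56 CPM, and Ins2 and Sst did not pass the filter. Ghrl, ghrelin, reached 49.6 CPM in WT replicate 2 and was between 1.56 and 12.0 CPM elsewhere. Iapp, islet amyloid polypeptide, was at 6.98 to 70.6 CPM in WT and 11.8 to 48.4 CPM in KO. Ppy, pancreatic polypeptide (log2 fold change 0.53), and Gast, gastrin (-0.67), had the smallest p in each direction, and both overlapped.

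Secretory genes were all measured. Of 25 genes of granules and secretion, 15 had a positive and 10 a negative log2 fold change (median 0.11). None was called by either test, where edgeR called 0% of all genes and DESeq2 4.2% higher and 0.642% lower. None had an unadjusted p under 0.05 in edgeR, against 6.42% higher and 3.97% lower of all genes. The granins Chga (0.26 ± 0.60 SE) and Chgb (0.50 ± 0.37 SE) and the prohormone convertases Pcsk1 (0.11 ± 0.36 SE) and Pcsk2 (-0.14 ± 0.45 SE) overlapped between genotypes, with Chga at 31.4 to 145 CPM in WT and 63.7 to 193 CPM in KO. Scg2, another granin, had a log2 fold change of 1.18 ± 0.82 (SE), and Slc2a2, the glucose transporter of beta cells and liver, one of -0.82 ± 0.39 (SE).

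Several genes upstream of Neurog3 differed between the genotypes in one of the tests. Of 20 inducers of Neurog3 and genes of the Notch gate that holds it back, 5 were higher and 4 lower at an unadjusted p under 0.05 in edgeR, against 6.42% and 3.97% of all genes. DESeq2 called 3 higher (Gata4, Gata6 and Hes1) and 3 lower (Notch1, Notch2 and Dll1), against 4.2% and 0.642% of all genes, of which Gata4 and Notch2 are named after their values were seen. The median of the list was -0.09. Gata6, a zinc-finger factor of pancreatic progenitors, was at 10.4, 18.7 and 11.8 CPM in WT and 42.8, 29.8 and 30.4 CPM in KO, without overlap (log2 fold change 1.33 ± 0.26 SE; adjusted p = 0.132 in edgeR and 3.55e-05 in DESeq2). Notch1, a receptor of the pathway, was at 95.5, 89.8 and 87.2 CPM in WT and 33.7, 59.5 and 54.4 CPM in KO, also without overlap (-0.89 ± 0.20 SE; adjusted p = 0.151 in edgeR and 0.00095 in DESeq2).

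Within the Notch gate the directions differed. Hes1, the repressor of Neurog3 that Notch activates, was at 7.68, 11.8 and 8.30 CPM in WT and 25.2, 26.6 and 11.3 CPM in KO, so KO replicate 3 overlapped WT (1.18 ± 0.35 SE; adjusted p = 0.239 in edgeR and 0.0102 in DESeq2). Dll1, a Notch ligand made by Neurog3 cells, was at 83.5, 90.4 and 62.5 CPM in WT and 47.8, 47.7 and 62.6 CPM in KO (-0.58 ± 0.17 SE; adjusted p = 0.248 in edgeR and 0.049 in DESeq2). The progenitor factors Pdx1 (-0.14 ± 0.15 SE) and Sox9 (-0.13 ± 0.14 SE) overlapped. Among the genes of this list with an unadjusted p under 0.05 in edgeR, the most GC-rich stretch was 77% to 87% in the higher ones (Gata4, Hes1, Gata6, Mnx1 and Foxa1). In the lower ones it was 68% (Dll1), 76.5% (Notch1), 77.5% (Notch2) and 78.5% (Hey1). Mnx1, Foxa1 and Hey1 are named after their values were seen. The part of GC content in these differences was not tested.

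Of 9 genes of cell cycle exit and delamination, which act as Neurog3 cells leave the epithelium, 6 had a positive and 3 a negative log2 fold change (median 0.15). None was called, where edgeR called 0% of all genes and DESeq2 4.2% higher and 0.642% lower. None had an unadjusted p under 0.05 in edgeR, against 6.42% higher and 3.97% lower of all genes. With so few genes, a count of 0 stands little apart from these shares. Cdkn1c, a cyclin-dependent kinase inhibitor, was at 45.5 to 72.7 CPM in WT and 66.8 to 90.7 CPM in KO (0.44 ± 0.19 SE), and Cdkn1b, another such inhibitor, at 4.36 to 6.94 and 3.92 to 5.01 CPM (-0.32 ± 0.25 SE).

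**Figure D5:**
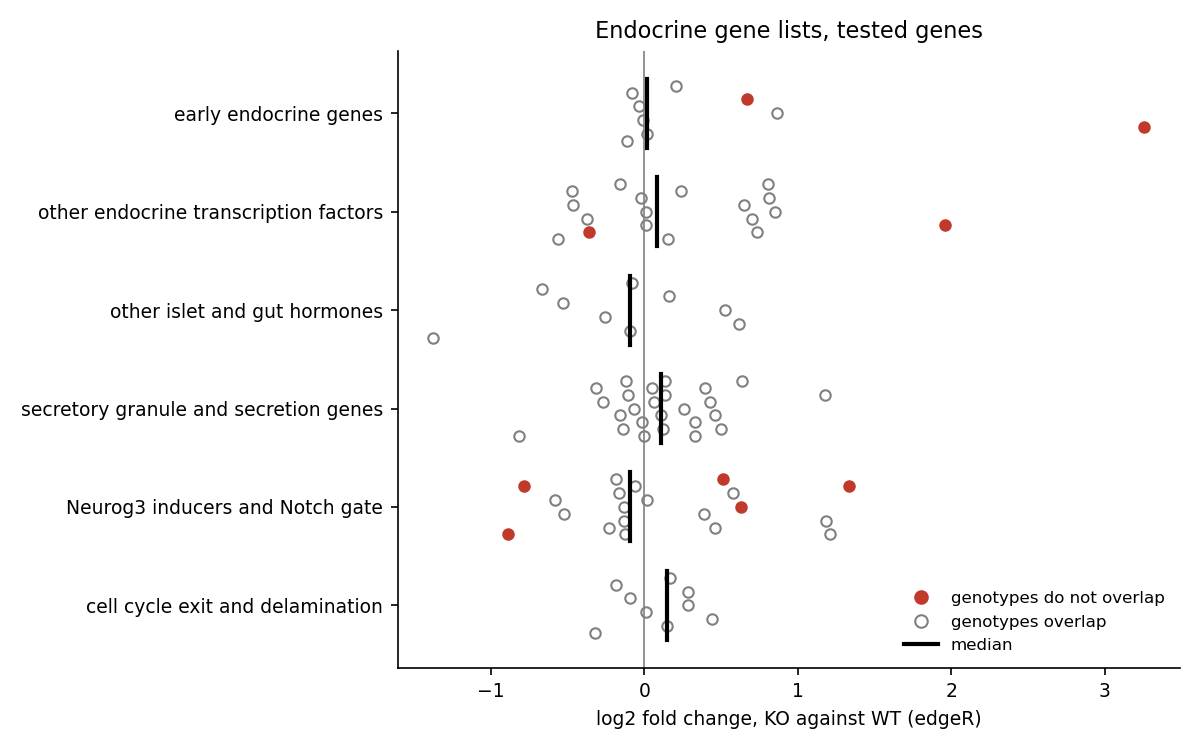
Log2 fold change in KO against WT (x axis, edgeR) of every tested gene of the 9 early endocrine genes and of 5 lists of related genes (rows); filled red points are genes whose genotypes do not overlap, and black bars are medians. Fev, at 3.26, lies farthest right, and the medians of the lists lie between -0.10 and 0.15. Of the 20 Neurog3 inducers and Notch gate genes, 3 are filled on the right and 2 on the left, against 8.36% and 7.99% of all genes.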

How the data were processed

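RNA of sorted cells was made into SMART-seq v4 and Nextera XT libraries. The authors removed low-quality sequence, used STAR to align reads to GRCm39 and GenomicAlignments to count them. The deposited values are raw, whole-number counts of reads per gene. The annotation and the use of strand are not given in the sources used here. A symbol was found for 94% of identifiers.

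Groups followed the genotype in the labels. The counts went into edgeR 4.0.16 (R 4.3.3; filterByExpr, TMM and the quasi-likelihood test at defaults), with genotype as the only term, and adjusted p-values were taken over all 16353 genes. CPM are counts per 1000000 after TMM scaling. As an alternative, DESeq2 1.42.0 was run at defaults. Standard errors in edgeR were derived from the F statistic. Exon lengths, 3′UTRs and GC-rich stretches came from GENCODE M21 (GRCm38), so no gene coordinates of the files' build are given. The code was tested on simulated data. The 9 genes, the lists and the alternatives were chosen with earlier results of these data known. Named were all 9 genes, fixed genes of each list by role, the gene with the smallest p in each direction of a list, and the 3 genes nearest in profile to Neurog3 and to Gcg; some of these are not reported here. Depth limits low genes: 1 count was at most 0.057 CPM.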

Additional observations from a re-analysis of the deposited data

How the results depend on the processing

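Of 15 alternatives, 12 left the count of called genes at 0 and the count among the 9 genes at 0. DESeq2 called 701 genes, edgeR without a filter on low counts 264 and edgeR without WT replicate 2 called 217, and in each of these 1 of the 9 genes was called, Fev, with adjusted p of 1.57e-08, 0.0178 and 0.0476. Leaving out 1 library at a time gave 0 to 217 called genes and 0 to 1 of the 9. At an unadjusted p under 0.05, edgeR gave 1700 genes. The log2 fold change of Fev stayed between 2.96 and 3.55, with adjusted p from 1.57e-08 to 1, the last without the 2 libraries with the most globin. Pax4 (0.442 to 0.88) and Insm1 (0.386 to 1.12) kept their direction and were never called. The median of the 9 genes ran from -0.359 without KO replicate 2 to 0.408 without WT replicate 2. No direction can be given for the other 6 genes. Leaving out 1 library moved Neurog3 from -0.195 to 0.554, Neurod1 from -0.476 to 0.165, Pax6 from -0.362 to 0.227, Isl1 from -0.362 to 0.228, Nkx2-2 from -0.389 to 0.253 and Gcg from -0.555 to 0.494. Pax6 changed sign with DESeq2 (0.00436), with its size factors in edgeR (0.00262), without globin and mitochondrial genes (0.00508), with GC offsets (0.0386) and without the 2 libraries with the most globin (0.281), which also turned Neurod1 (0.193). The library code as a term turned Gcg (-0.145). The cause was not tested.

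Replicate numbers did not pair the libraries: deviations of same-numbered libraries correlated at -0.211, 0.251 and 0.0779, and 2 of 6 libraries were closest to their own number. With the replicate block, 0 genes were called and 1693 had an unadjusted p under 0.05, 0 of the 9 genes were called, their median was 0.108, Fev was at 3.2 and Pax6 at 0.0147.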

Other observations

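The genes nearest in profile to Neurog3 over the 6 libraries were Ier5l (root mean square difference of centred log2 CPM 0.117), Phf1 (0.131) and Gm10193 (0.135). Those nearest to Gcg were Dnaja4 (0.14), Scg3, a granin-family protein of secretory granules (0.141), and Fabp7, a fatty acid binding protein (0.142). For Fev, a gene outside the naming rule and chosen after its values were seen, they were Notum, a secreted inhibitor of Wnt signalling (0.385), She (0.388) and Tspan33 (0.458), with log2 fold changes of 3.03, 4.99 and 2.38 in KO against WT. Fev divides by genotype, so the genes nearest to it do as well, and their fold changes follow from how they were picked. All of these likenesses rest on 6 libraries.

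Sst, which encodes somatostatin, reached 7.93 CPM in the second WT library and 6.22 CPM in the first KO library. It stood at 0.194 CPM in the third WT library and at 0 in the other 3. The library codes of the first 2 differ in their last letter alone, and what the codes mark is not stated. Gcg, at 4578 and 2283 CPM there, did not single them out, since it reached 5047 CPM in KO replicate 2.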
